A study of Mus musculus with 18 samples.

Results

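*Myc* and its neighbour *Pvt1* lie next to each other on mouse chromosome 15, and *Myc* belongs with *Mycn*, *Mycl*, *Max*, *Mxd1*, *Mxd4*, *Mxi1*, *Mnt* and *Mga* to the MAX network of transcription factors. These 10 genes, out of 45706 in the count files, were followed through 18 whole mouse kidneys. They were found by their mouse symbols after the Ensembl identifiers of the files had been matched to GENCODE vM21 on GRCm38, and all 10 passed the filter on low counts in both cohorts. The 10 genes were chosen from values of these kidneys that were already known, namely the levels in KO and control kidneys, and *Myc* is itself the deleted gene. Their levels and fold changes are therefore given as a description, with no test.

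All mice were C57BL/6 by the labels, the floxed lines being given as C57BL/6J in the study's methods, and every kidney had gone through bilateral ischemia (22.5 min) and then reperfusion (12 h). *Myc* KO mice (n = 5) carried floxed *Myc* alleles, the Pax8rtTA transgene and TetOcre, and *Myc* control mice (n = 5) carried the floxed alleles and Pax8rtTA without TetOcre. *Cxcl12* KO mice (n = 5) and *Cxcl12* control mice (n = 3) had the same 2 transgene settings with floxed *Cxcl12*, the gene of a chemokine. All mice were young adult males and received doxycycline, which switches on the recombinase through rtTA, a transactivator under the *Pax8* promoter that is active in tubule epithelium. Endothelial cells, leukocytes, fibroblasts and podocytes lie outside this promoter's reach, so that their *Myc* alleles stay intact in a KO kidney. The part of *Myc* between the loxP sites is not given in the sources used here. In RNA of whole kidneys, fewer cells of a type and less RNA per cell cannot be told apart.

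MYC works as a dimer with its partner MAX, binds the E-box CACGTG and raises the transcription of genes for ribosome production, nucleotide and polyamine synthesis and the cell cycle. MYCN and MYCL are its paralogs and use the same partner. MXD1, MXD4, MXI1 and MNT also need MAX, but recruit SIN3 and histone deacetylases and lower transcription, so that both sides compete for MAX and for the same sites. MGA joins MAX in a Polycomb complex. *Pvt1* is a long noncoding RNA gene downstream of *Myc*, and *Myc* is known in the kidney as an early response gene of injured tubules.

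The E-box is the sequence through which the network acts, and some of its own genes carry it at their start. Promoter windows from 250 bases before to 50 bases after the transcript start were read from RefSeq (GRCm38.p6) for 8 of the 10 genes, and no window was read for *Myc* and *Pvt1*. The windows of *Max*, *Mxd4* and *Mnt* held 1 copy of CACGTG each, a motif that reads the same on both strands, and those of *Mycn*, *Mycl*, *Mxd1*, *Mxi1* and *Mga* held none. Among all 27025 genes with a window, 8.09% held the motif. The 3 windows with an E-box are shown first, with the motif in capitals, followed by those of *Mycn* and *Mxd1*, the genes of MAX partners other than *Myc* with the largest fold changes in *Myc* KO kidneys. They lie at chr12:76962199-76962498 (*Max*, minus strand), chr5:34187661-34187960 (*Mxd4*, minus strand), chr11:74830674-74830973 (*Mnt*, plus strand), chr12:12941787-12942086 (*Mycn*, minus strand) and chr6:86669110-86669409 (*Mxd1*, minus strand).
Max: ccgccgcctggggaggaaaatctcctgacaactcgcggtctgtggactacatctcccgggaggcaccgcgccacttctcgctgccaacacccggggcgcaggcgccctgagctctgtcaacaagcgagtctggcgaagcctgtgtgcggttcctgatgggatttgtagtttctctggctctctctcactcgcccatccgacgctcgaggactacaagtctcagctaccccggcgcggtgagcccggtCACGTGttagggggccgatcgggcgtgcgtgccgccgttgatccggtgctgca
Mxd4: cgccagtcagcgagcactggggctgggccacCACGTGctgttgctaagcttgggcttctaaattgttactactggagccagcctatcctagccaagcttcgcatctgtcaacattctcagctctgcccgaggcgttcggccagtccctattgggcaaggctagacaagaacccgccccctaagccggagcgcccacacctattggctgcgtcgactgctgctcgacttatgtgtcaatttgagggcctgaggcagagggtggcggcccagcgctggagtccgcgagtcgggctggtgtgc
Mnt: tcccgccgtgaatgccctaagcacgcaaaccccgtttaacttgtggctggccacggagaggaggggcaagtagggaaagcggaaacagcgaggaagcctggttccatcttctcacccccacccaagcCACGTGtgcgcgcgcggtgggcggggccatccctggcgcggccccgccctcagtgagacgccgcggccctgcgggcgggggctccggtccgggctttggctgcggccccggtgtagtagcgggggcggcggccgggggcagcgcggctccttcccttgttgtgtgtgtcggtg
Mycn: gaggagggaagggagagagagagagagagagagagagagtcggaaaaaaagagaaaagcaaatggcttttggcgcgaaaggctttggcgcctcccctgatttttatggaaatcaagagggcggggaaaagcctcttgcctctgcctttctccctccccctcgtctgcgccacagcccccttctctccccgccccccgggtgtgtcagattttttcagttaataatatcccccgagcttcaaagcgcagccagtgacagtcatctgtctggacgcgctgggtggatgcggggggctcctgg
Mxd1: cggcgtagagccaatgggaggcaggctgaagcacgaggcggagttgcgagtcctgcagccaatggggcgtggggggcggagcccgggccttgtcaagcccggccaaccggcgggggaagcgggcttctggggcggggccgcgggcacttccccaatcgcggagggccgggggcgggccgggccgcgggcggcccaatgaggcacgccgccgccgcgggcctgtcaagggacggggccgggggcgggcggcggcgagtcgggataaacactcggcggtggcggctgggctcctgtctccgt
Counted from the transcript start, the E-box began at base -3 in *Max*, at base -219 in *Mxd4* and at base -123 in *Mnt*. A match describes these letters only and is no evidence of binding.

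The kidneys had 12918220 to 29749500 reads on genes each, and levels are given as CPM, that is, reads on a gene relative to all reads on genes, scaled by the TMM method over all 18 kidneys. In 6 kidneys, 2 each of *Myc* KO, *Myc* control and *Cxcl12* KO and 0 of *Cxcl12* control, 3.69% to 4.63% of reads were unmapped, against 5.28% to 6.48% in the other 12. The labels name no batch, and these 6 are called the low-unmapped kidneys below. All 8 tubule markers were expressed in every group, with summed levels from 6473 to 9168 CPM, and 0 of them passed the edgeR test in either cohort (0 and 2 with an unadjusted p under 0.05 for *Myc* and *Cxcl12* KO, 0 called by DESeq2). *Cxcl12*, the other deleted gene, had 32.2 ± 6.07 CPM (SD, n = 5) in its KO and 53.4 ± 7.92 CPM (SD, n = 3) in its control kidneys, with a log2 fold change of -0.73 (SE 0.15, adjusted p = 0.094 by the edgeR quasi-likelihood fit).

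*Myc* (chromosome 15, 61985391 to 61990374, plus strand) was lower in every *Myc* KO kidney than in any other kidney. The KO kidneys had 37.0, 29.1, 29.6, 26.6 and 32.4 CPM, and the *Myc* control kidneys had 117.3, 92.6, 85.8, 98.8 and 79.6 CPM. KO and control did not overlap, and the highest KO kidney stood well below the lowest control kidney. The mean fell from 94.8 ± 14.5 to 31.0 ± 3.94 CPM (SD, n = 5 each), which left 32.6% of the control level, and the log2 fold change was -1.61 (SE 0.12). Among low-unmapped kidneys alone (2 against 2) the log2 ratio of the means was -1.71, and among the others (3 against 3) it was -1.55. Between 429 and 840 reads per KO kidney still lay on *Myc*. In which cells these reads arose was not tested.

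In the *Cxcl12* cohort, *Myc* had 105.0, 122.8, 102.0, 91.4 and 100.3 CPM in KO kidneys and 75.4, 108.8 and 86.2 CPM in control kidneys. The groups overlapped, although all 5 KO kidneys lay above the control mean of 90.1 ± 17.1 CPM (SD, n = 3). The log2 fold change was 0.21 (SE 0.13), and it ranged from 0.09 without the first control kidney to 0.36 without the second. Without the low-unmapped kidneys it was 0.11 (SE 0.13).

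*Pvt1* (chromosome 15, 62037986 to 62378096, plus strand), the noncoding neighbour, moved the opposite way to *Myc*. The *Myc* KO kidneys had 7.67, 8.72, 7.90, 7.88 and 6.55 CPM, and the *Myc* control kidneys had 2.96, 3.14, 2.67, 2.58 and 2.07 CPM. The lowest KO kidney had more *Pvt1* than any of the other 13 kidneys, whose highest value was 3.44 CPM. The mean was 7.74 ± 0.78 CPM in KO and 2.69 ± 0.41 CPM in control kidneys (SD, n = 5 each), a 2.88-fold ratio, and the log2 fold change was 1.52 (SE 0.14). It was 1.36 as a log2 ratio of means within the low-unmapped kidneys and 1.64 within the others. The gene is counted on few reads, from 97 to 173 per KO kidney and from 35 to 79 per *Myc* control kidney. The *Cxcl12* cohort showed no such split, with means of 2.50 ± 0.62 CPM in its KO (SD, n = 5) and 2.78 ± 0.34 CPM in its control kidneys (SD, n = 3) and a log2 fold change of -0.14 (SE 0.24).

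*Pvt1* starts 47.6 kb beyond the end of *Myc* and covers 340.1 kb, of which 6996 bases are exons. Its body contains 5 small annotated genes, 4 of them short RNAs and 1 a pseudogene, *H2afy3*, on the other strand. The counting ignored strand, but *H2afy3* had a mean of 0.052 CPM, and each of the short RNAs was at or near 0. Reads that fall on 2 genes were set aside by the counting as ambiguous.

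Read counts of both genes come from the same library, so their ratio does not depend on the scaling. A *Myc* KO kidney had 3.34 to 4.94 *Myc* reads for each *Pvt1* read, a *Myc* control kidney 29.5 to 39.6, a *Cxcl12* KO kidney 33.0 to 52.2 and a *Cxcl12* control kidney 26.8 to 45.0. The *Myc* KO kidneys stood apart from the other 13, and the 3 other groups overlapped. Over all 18 kidneys, Pearson's r of *Myc* and *Pvt1* (log2 CPM) was -0.92, the lowest r of *Myc* with any of 14726 genes. The kidneys form 2 clusters, and within the 13 kidneys without the *Myc* deletion r was 0.12, so the pooled r follows the split between the *Myc* KO kidneys and the rest, on which the genes were chosen.

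**Figure D1:**
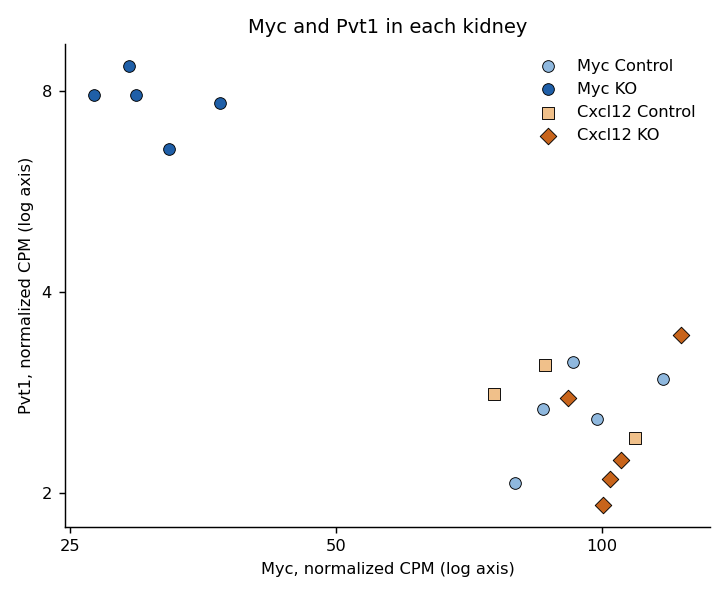
*Myc* (x axis) and *Pvt1* (y axis) in normalized CPM on log axes, 1 point per kidney, with colour and shape giving the group. The 5 *Myc* KO kidneys lie at upper left, from 26.6 to 37.0 CPM of *Myc* and from 6.55 to 8.72 CPM of *Pvt1*, and the other 13 kidneys lie at lower right with no slope among them that stands out (r = 0.12).

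The annotation places 27 further genes within 2 Mb on either side of *Myc*, of which 14 had no count in any kidney and 5 were tested in each cohort. None of those tested passed in either cohort (edgeR's quasi-likelihood test, 0 with an unadjusted p under 0.05 and 0 called by DESeq2). Of the 27, 2 had a mean of at least 1 CPM. *Fam84b* (60818994 to 60853778, minus strand), about 1 Mb before *Myc*, had 142.0 ± 17.5 CPM in *Myc* KO and 122.0 ± 22.2 CPM in *Myc* control kidneys (SD, n = 5 each), a log2 fold change of 0.22 (SE 0.12, adjusted p = 0.31). The overlapping transcript *9930014A18Rik* had 4.19 ± 0.90 and 3.35 ± 0.91 CPM (SD, n = 5 each), a log2 fold change of 0.32 (SE 0.21, adjusted p = 0.39). The widest estimate of the window after *Myc* and *Pvt1* was that of *Gsdmc2*, singled out after its value was seen, at -0.98 (SE 0.47, adjusted p = 0.25) with a mean of 0.91 CPM.

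The MYC paralogs were expressed far below *Myc*. *Mycn*, which encodes the paralog best known from the embryonic kidney and neural tumours, had 8.93, 6.58, 10.8, 8.37 and 6.94 CPM in *Myc* KO kidneys and 5.12, 5.11, 5.65, 3.81 and 7.11 CPM in *Myc* control kidneys. Every KO kidney lay above the control mean, and the groups overlapped through the fifth control kidney. The means were 8.32 ± 1.69 and 5.36 ± 1.19 CPM (SD, n = 5 each), and the log2 fold change was 0.63 (SE 0.18). It lay between 0.52 and 0.75 under all 18 alternatives. Deletion of *Cxcl12* left *Mycn* at 5.11 ± 1.66 CPM (SD, n = 5), beside 4.79 ± 0.48 CPM in the matching controls (SD, n = 3), a log2 fold change of 0.07 (SE 0.24).

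*Mycl*, the third paralog, was the scarcest of the 9 coding genes, with 20 to 79 reads per kidney. It ranged from 1.23 to 3.71 CPM in *Myc* KO and from 1.54 to 3.45 CPM in *Myc* control kidneys. The log2 fold changes were 0.01 (SE 0.30) after deletion of *Myc* and -0.32 (SE 0.32) after that of *Cxcl12*, with larger SE than for any other gene of the network.

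To compare levels between genes, CPM was divided by the exon length in kb. On this scale, *Myc* made up 93.9% ± 1.41 of the summed level of *Myc*, *Mycn* and *Mycl* in *Myc* control kidneys and 78.5% ± 2.57 in *Myc* KO kidneys (SD, n = 5 each). *Mycn* made up 4.51% ± 1.49 and 17.5% ± 3.56. The sum itself was 37.1 ± 5.12 CPM per kb in control and 14.5 ± 1.71 CPM per kb in KO kidneys, and its highest KO value, 17.2, lay below its lowest control value, 31.8. In CPM, the mean of *Mycn* was 2.96 higher in KO than in control kidneys, and that of *Myc* fell by 63.9. The share of *Myc* was 95.0% ± 1.36 in *Cxcl12* KO (SD, n = 5) and 94.2% ± 0.96 in *Cxcl12* control kidneys (SD, n = 3).

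**Figure D2:**
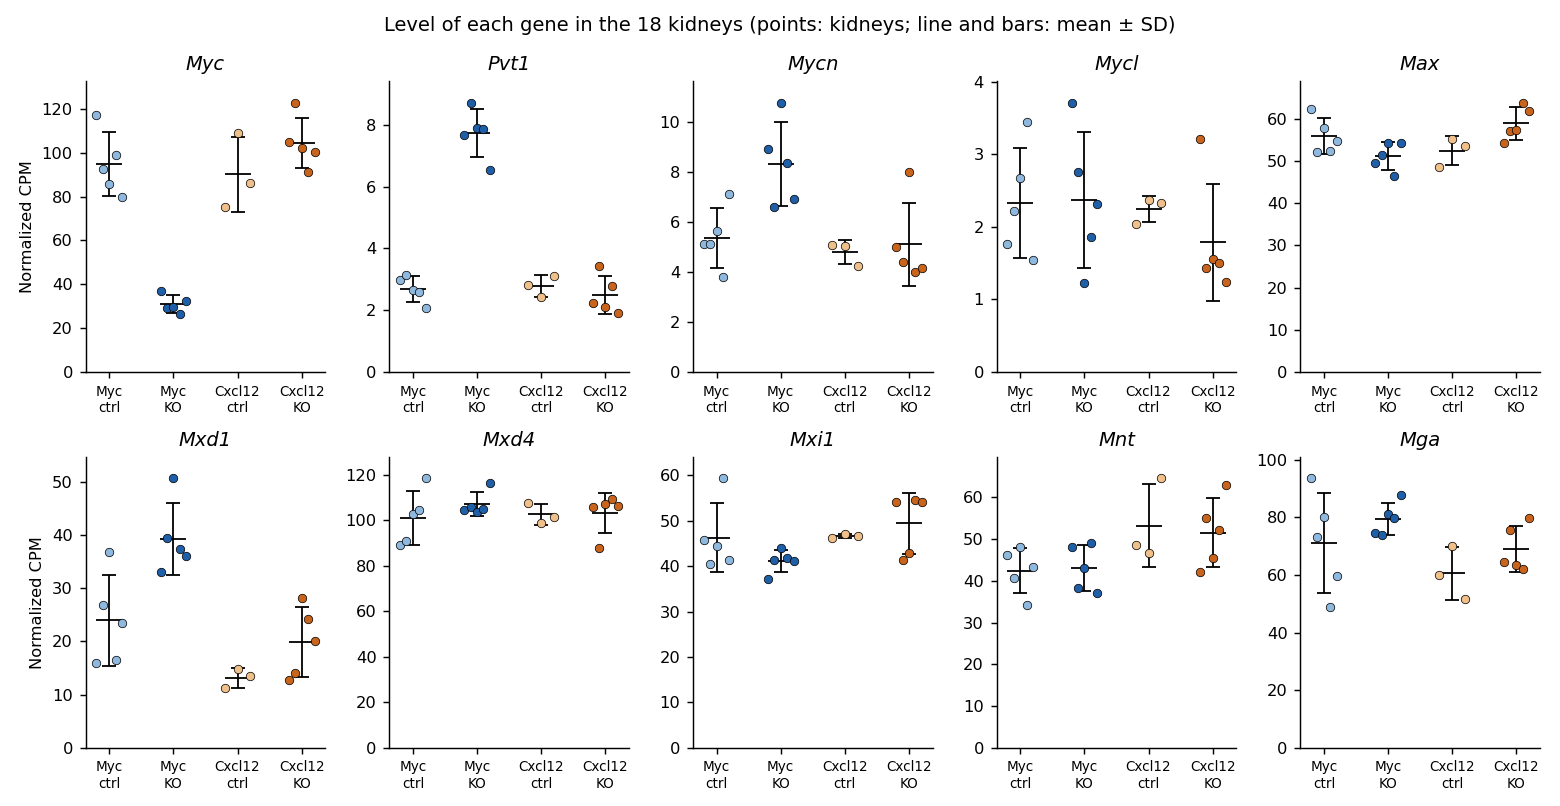
Normalized CPM (y axis, from 0, a scale for each gene) of the 10 genes in the 4 groups, with 1 point per kidney and the mean ± SD as a line with bars. KO and control kidneys are apart only for *Myc* (26.6 to 37.0 against 79.6 to 117.3 CPM) and *Pvt1* (6.55 to 8.72 against 2.07 to 3.14 CPM) in the *Myc* cohort, and all 10 genes overlap in the *Cxcl12* cohort.

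*Max*, the shared partner, had slightly lower values after *Myc* deletion. The *Myc* KO kidneys had 49.5, 51.4, 54.2, 46.3 and 54.2 CPM and the *Myc* control kidneys 62.3, 52.1, 57.8, 52.3 and 54.8 CPM, with overlap. The log2 fold change was -0.13 (SE 0.07), and all 5 KO kidneys lay below the control mean of 55.9 ± 4.29 CPM (SD, n = 5). The log2 ratio of the means was -0.15 among the low-unmapped kidneys (2 against 2) and -0.11 among the others (3 against 3). For *Cxcl12* KO the log2 fold change was 0.16 (SE 0.08), with all 5 KO kidneys above the control mean of 52.4 ± 3.47 CPM (SD, n = 3). Per kb of exon, *Max* had 0.45 ± 0.06 times the level of *Myc* in *Myc* control kidneys and 1.26 ± 0.15 times in *Myc* KO kidneys (SD, n = 5 each). *Max* RNA was thus below *Myc* RNA in each control kidney, at 0.40 to 0.52 times, and above it in each KO kidney, at 1.01 to 1.38 times. The denominator is the deleted gene, so this shift largely restates its fall.

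*Mxd1*, which encodes a MAX partner that opposes MYC and rises as cells leave the cell cycle, had the largest positive fold change of the genes that encode MAX or its partners, in both cohorts. The *Myc* KO kidneys had 33.0, 39.4, 50.7, 37.4 and 36.1 CPM, and the *Myc* control kidneys had 16.0, 26.9, 36.8, 16.6 and 23.4 CPM. All KO kidneys lay above the control mean of 23.9 ± 8.54 CPM (SD, n = 5), and the third control kidney alone reached into their range. The log2 fold change was 0.72 (SE 0.21), and it was 0.93 (SE 0.17) without the third control kidney. That is the highest of the 18 alternatives, which began at 0.60. In the *Cxcl12* cohort the KO kidneys had 12.8, 14.1, 28.1, 24.2 and 20.1 CPM and the control kidneys 11.2, 14.8 and 13.4 CPM. There, 3 KO kidneys stood above all controls and the 2 low-unmapped KO kidneys were at the controls' level. The log2 fold change was 0.58 (SE 0.24), and it was 0.86 (SE 0.16) without the low-unmapped kidneys. Over the 16 alternatives of this cohort it ranged from 0.39 to 0.87. The estimates of the cohorts differed by 0.13 (SE 0.35).

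Leukocyte markers moved with *Mxd1* from kidney to kidney. After centring on the groups, Pearson's r of *Mxd1* over the 18 kidneys was 0.91 with *Itgam*, 0.89 with *Csf3r*, 0.89 with *S100a9* and 0.87 with *S100a8*, genes that neutrophils express strongly, and 0.63 with the pan-leukocyte gene *Ptprc*. With *Adgre1*, a macrophage gene, it was 0.05, and with *Lyz2* 0.44. These r values describe 18 kidneys that share library and depth with *Mxd1*, and no test was made of them. The third *Myc* control kidney, the one with the most *Mxd1* among controls, had 23.7 CPM of *Csf3r*, against 4.20 to 11.3 CPM in the other controls. Of the 8 leukocyte markers, 7 were tested, 5 had a positive log2 fold change for *Myc* KO and 6 for *Cxcl12* KO, and 0 passed the test in either (2 and 5 with an unadjusted p under 0.05, and 0 and 0 called by DESeq2). Without the third *Myc* control kidney, 2 of them, *Itgam* and *Csf3r*, were called higher in *Myc* KO. That fit called 433 of all genes higher, against 53 when no kidney was left out. No other alternative of the *Myc* cohort called a leukocyte marker. Without the low-unmapped kidneys 2, *S100a8* and *S100a9*, were called higher in *Cxcl12* KO. The summed level of the 8 ranged from 174.9 to 284.7 CPM in *Myc* KO, from 87.4 to 258.3 in *Myc* control, from 61.9 to 165.3 in *Cxcl12* KO and from 51.5 to 56.7 in *Cxcl12* control kidneys. The T cell marker *Cd3e* was near 0, with at most 0.54 CPM. The part of leukocytes in the *Mxd1* values was not tested.

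**Figure D3:**
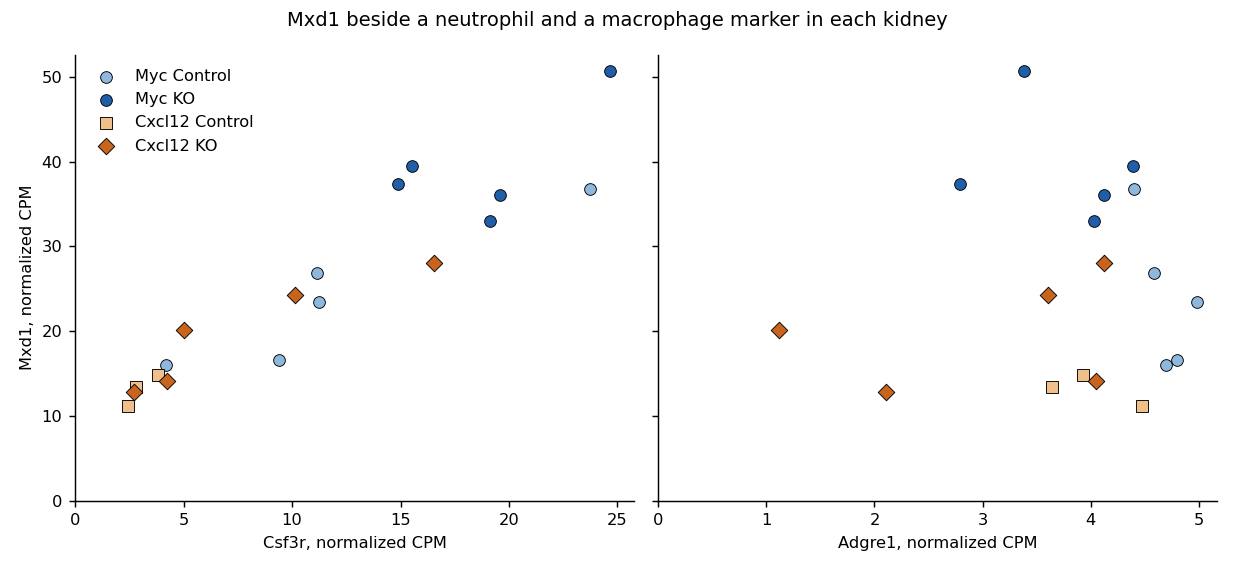
*Mxd1* (y axis) against *Csf3r*, a neutrophil marker (left), and *Adgre1*, a macrophage marker (right), all in normalized CPM, 1 point per kidney by group. *Mxd1* rises with *Csf3r* over the 18 kidneys (r = 0.95) and after centring on the groups (r = 0.89, pooled over groups). Among *Myc* KO kidneys this rise rests on the third, with 50.7 CPM of *Mxd1* and 24.7 CPM of *Csf3r*. With *Adgre1* there is no slope (group-centred r = 0.05).

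The other MAX partners stayed close to their control levels. *Mxd4*, the MXD gene with the highest level, ranged from 103.8 to 116.4 CPM in *Myc* KO and from 89.3 to 118.5 CPM in *Myc* control kidneys, with log2 fold changes of 0.08 (SE 0.09) for *Myc* KO and 0.00 (SE 0.09) for *Cxcl12* KO. *Mxi1*, the MXD family member also called MXD2, ranged from 37.1 to 44.0 CPM in *Myc* KO and from 40.4 to 59.4 CPM in *Myc* control kidneys. Its log2 fold changes were -0.17 (SE 0.10) and 0.08 (SE 0.11), and all 5 *Myc* KO kidneys lay below the control mean. *Mnt*, the repressor found in most cell types, ranged from 37.0 to 49.1 CPM in *Myc* KO and from 34.1 to 48.0 CPM in *Myc* control kidneys, with log2 fold changes of 0.02 (SE 0.11) and -0.05 (SE 0.14). *Mga*, a large protein with a T-box domain besides its MAX-binding domain, had 79.4 ± 5.69 CPM in *Myc* KO and 71.1 ± 17.5 CPM in *Myc* control kidneys (SD, n = 5 each) and log2 fold changes of 0.16 (SE 0.14) and 0.18 (SE 0.12). The groups of each of these genes overlapped in both cohorts. The SE of these estimates were 0.09 to 0.14 on the log2 scale, so that changes of this size, or somewhat larger, could not be resolved.

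Per kb of exon, the summed level of *Mxd1*, *Mxd4*, *Mxi1*, *Mnt* and *Mga* was 38.7 ± 1.33 CPM per kb in *Myc* KO and 35.9 ± 2.29 CPM per kb in *Myc* control kidneys (SD, n = 5 each). Divided by the summed level of *Myc*, *Mycn* and *Mycl*, it gave 2.70 ± 0.33 in *Myc* KO kidneys, from 2.18 to 3.09, and 0.98 ± 0.17 in *Myc* control kidneys, from 0.79 to 1.16. This ratio was 0.95 ± 0.16 for *Cxcl12* KO (SD, n = 5) and 1.05 ± 0.19 for *Cxcl12* control kidneys (SD, n = 3). The *Myc* KO kidneys were apart from the other 13 in the ratio, whereas the sums over the repressors overlapped. Most of the denominator is *Myc*, the deleted gene, so this separation was fixed in advance and largely restates its fall.

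Ordered by CPM per kb over the 13 kidneys without the *Myc* deletion, *Myc* stood first at 35.8 ± 5.19, followed by *Max* at 15.6 ± 1.23, *Mxd4* at 12.1 ± 1.03, *Mnt* at 10.5 ± 1.85, *Mxi1* at 6.98 ± 0.89, *Mga* at 4.43 ± 0.81, *Mxd1* at 2.81 ± 1.07, *Mycn* at 1.56 ± 0.37, *Mycl* at 0.52 ± 0.17 and *Pvt1* at 0.38 ± 0.07 (SD over kidneys). Only *Myc* and *Max*, and *Mycn* and *Mycl*, had ranges that did not overlap between neighbours. In *Myc* KO kidneys the order began with *Max* at 14.2 ± 0.93, *Mxd4* at 12.6 ± 0.62 and *Myc* at 11.4 ± 1.45 (SD, n = 5), whose ranges overlapped, and ended with *Pvt1* at 1.11 ± 0.11 above *Mycl* at 0.59 ± 0.23. The exon lengths join all annotated transcripts of a gene (15340 bases for *Mga*), and which exons were used in these kidneys was not measured.

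In the *Myc* cohort, 2 of the 10 genes, *Myc* and *Pvt1*, were past an adjusted p of 0.05 (edgeR's quasi-likelihood test), where 1.65% of all 14936 tested genes were, 1.29% lower and 0.355% higher. The same 2 were the genes whose KO and control kidneys did not overlap, as was so for 5.97% of all tested genes. For *Cxcl12* KO, 0 of the 10 were called and 0 had kidneys that did not overlap, against 0% and 9.68% of 15154 tested genes. There, 1976 genes had an unadjusted p under 0.05, and DESeq2 called 355. Since the 10 genes were chosen on these values, nothing is read from their counts.

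**Figure D4:**
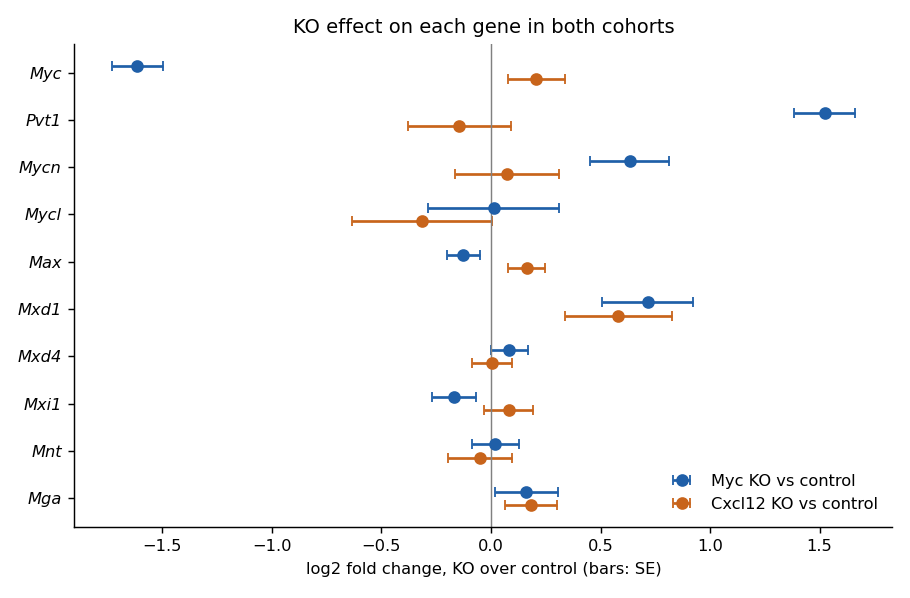
Log2 fold change of KO over control (x axis, bars: SE) of the 10 genes (y axis) in the *Myc* cohort (blue) and the *Cxcl12* cohort (orange). *Myc* (-1.61) and *Pvt1* (1.52) are at the ends in the *Myc* cohort only, *Mxd1* is right of 0 in both (0.72 and 0.58), and the other estimates of the *Myc* cohort lie between -0.17 and 0.63.

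Genes around the network were read from 7 lists with 77 genes, chosen for their known roles with earlier results of these kidneys in view. In the *Myc* cohort, 12 of 76 tested genes passed the test and all 12 were lower in KO kidneys. Of all tested genes, 1.65% passed and 1.29% were called lower. The counts of the lists are a description, as the lists were chosen with earlier results known. The 12 became 5 without the second *Myc* control kidney, 3 without the second and 4 without the third *Myc* KO kidney, and 1 without the low-unmapped kidneys. Deletion of *Cxcl12* gave 0 calls among 75 (7 with an unadjusted p under 0.05, and 1, *Shmt1*, called by DESeq2).

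Among genes that MYC is known to induce, 10 of 23 tested fell in *Myc* KO kidneys and 0 rose by edgeR's test, against 1.29% and 0.355% of all genes. An unadjusted p under 0.05 was found for 18 of the 23, and DESeq2 called 14, all lower, adding *Fbl*, *Nop58*, *Rrp9* and *Tfrc*. The median log2 fold change of the 23 was -0.36, beside -0.0008 for all tested genes, and 21 lay below 0. The list was chosen with earlier results of these kidneys in view, so nothing is read from its counts and median beside those of all genes. *Srm*, the spermidine synthase of polyamine synthesis, fell furthest, from 53.6 ± 4.13 to 30.3 ± 2.41 CPM (SD, n = 5 each), a log2 fold change of -0.82 (SE 0.08, adjusted p = 0.0010 from edgeR's test). *Nop56*, a core protein of box C/D snoRNPs, fell from 59.3 ± 4.46 to 39.4 ± 4.43 CPM, by 0.59 on the log2 scale (SE 0.09, adjusted p = 0.012). *Cad*, which starts pyrimidine synthesis, fell by 0.55 (SE 0.08, adjusted p = 0.011), and the nucleolar gene *Mybbp1a* fell by 0.54 (SE 0.08, adjusted p = 0.010). KO and control kidneys did not overlap for any of these 4. The other 6 called were *Npm1*, *Nolc1*, *Pa2g4*, *Gnl3*, *Bop1* and *Cdk4*, genes of the nucleolus, of growth control and, with *Cdk4*, of the cell cycle. The 13 that did not pass edgeR's test included *Odc1* at -0.21 (SE 0.17), *Ldha* at -0.16 (SE 0.09) and *Mcm4* at 0.01 (SE 0.10), and the 2 above 0 were *Mcm4* and *Ccnd2* at 0.29 (SE 0.10).

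The count of 10 depended on single kidneys. It was 5 without the second *Myc* control kidney, 3 without the second, 4 without the third, 6 without the fourth and 6 without the fifth *Myc* KO kidney, and 1 without the low-unmapped kidneys. *Srm* passed in all 18 alternatives. For *Cxcl12* KO, 0 of the 23 passed, the median was 0.02, and *Srm* had a log2 fold change of -0.02 (SE 0.12). *Npm1* and some other ribosome genes have many processed pseudogenes, and reads that map to several copies are not in these counts.

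Markers of other cells are given beside these counts, and 0 passed the edgeR test between *Myc* KO and control kidneys. All 4 endothelial markers had positive log2 fold changes, with a median of 0.36 (2 with an unadjusted p under 0.05, and 2, *Cdh5* and *Kdr*, called by DESeq2), and their summed level was 550.6 to 769.6 CPM in KO and 394.2 to 670.6 CPM in control kidneys. All 4 podocyte markers were positive as well, with a median of 0.34 (2 with an unadjusted p under 0.05, and 1, *Nphs1*, called by DESeq2), and their sum was 708.6 to 804.9 CPM in KO and 419.3 to 731.6 CPM in control kidneys. Of 4 interstitial markers 3 were positive, with a median of 0.20 (1 with an unadjusted p under 0.05, and 1, *Col1a1*, called lower by DESeq2). The proliferation genes *Mki67* and *Top2a* had about 3 CPM and log2 fold changes of -0.17 (SE 0.27) and -0.41 (SE 0.30). *Havcr1*, the KIM-1 gene of injured proximal tubules, had 202.7 ± 79.3 CPM in KO and 506.3 ± 297.6 CPM in control kidneys (SD, n = 5 each), a log2 fold change of -1.32 (SE 0.43, adjusted p = 0.12), and the injury gene *Lcn2* had 0.39 (SE 0.20, adjusted p = 0.27). The part of these cells and of the injury in the target values was not tested.

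The promoter windows of this list are described for the motif shown above. Of its genes with a RefSeq window, 7 of 18 (38.9%) held CACGTG, against 8.09% of all genes. In the other lists around the network the share ran from 0% (repressed targets) to 50% (MLX list, 2 of 4 genes). The list was made of known MYC targets, and nothing is read from its share. The induced targets with the motif were *Cdk4*, *Eif4e*, *Hspd1*, *Ldha*, *Mybbp1a*, *Nme1* and *Prmt1*. Of these, *Cdk4* and *Mybbp1a* were among the 10 called and *Prmt1* was not analysed here. *Max*, *Mxd4* and *Mnt*, with an E-box in the windows printed above, showed log2 fold changes of -0.13, 0.08 and 0.02 in the *Myc* cohort.

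Genes that MYC is known to repress did not pass the test. Of 7 tested, 5 had a positive log2 fold change in *Myc* KO kidneys, with a median of 0.13, and 0 were called (1 with an unadjusted p under 0.05, 0 by DESeq2). The largest was that of *Gadd45a*, a stress gene of growth arrest, at 0.49 (SE 0.20, adjusted p = 0.19), followed by the inhibitor *Cdkn2b* at 0.35 (SE 0.19, adjusted p = 0.30), *Ndrg2* at 0.21 (SE 0.13, adjusted p = 0.35) and *Cdkn1b* at 0.13 (SE 0.08, adjusted p = 0.37).

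Of 12 cofactors that MYC recruits, *Ruvbl2* and *Kat2a* fell and the other 10 did not pass edgeR's test, which called 1.29% of all tested genes lower. An unadjusted p under 0.05 was found for 8 of the 12, and DESeq2 called 4, with *Wdr5* lower and *Trrap* higher besides these 2. *Ruvbl2*, an ATPase of the TIP60 and INO80 complexes, fell from 39.6 ± 3.98 to 27.6 ± 1.58 CPM (SD, n = 5 each), by 0.52 on the log2 scale (SE 0.08, adjusted p = 0.014). *Kat2a*, the acetyltransferase GCN5, fell from 37.3 ± 3.46 to 26.5 ± 1.62 CPM, by 0.49 (SE 0.08, adjusted p = 0.018). The list's median was 0.03. Both calls were lost without the second *Myc* control kidney, without the second or the third *Myc* KO kidney, and without the low-unmapped kidneys, which left 0 called.

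The corepressors through which MXD proteins and MNT act did not pass the test, with 0 of 8 called (1 with an unadjusted p under 0.05, 0 by DESeq2) and a median of 0.06. The largest estimates were 0.26 for *Sap30* (SE 0.14, adjusted p = 0.29), -0.17 for *Rbbp7* (SE 0.07, adjusted p = 0.19), 0.14 for *Sin3b* (SE 0.09, adjusted p = 0.39) and 0.13 for *Ncor1* (SE 0.08, adjusted p = 0.39). The partners of MGA in its Polycomb complex lay mostly below 0, with 5 of 6 estimates negative, a median of -0.22 and 0 called (3 with an unadjusted p under 0.05, and 1, *L3mbtl2*, called by DESeq2). *Pcgf6* stood at -0.35 (SE 0.13, adjusted p = 0.14), *L3mbtl2* at -0.31 (SE 0.09, adjusted p = 0.098), *Tfdp1* at -0.27 (SE 0.10, adjusted p = 0.17) and *E2f6* at -0.18 (SE 0.10, adjusted p = 0.34).

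The list for the parallel branch around MLX, a MAX relative that pairs with the glucose sensors MLXIP and MLXIPL, also held *Mxd3*. That gene belongs to the MXD family of MAX partners and not to the MLX branch. The list had 0 of 4 called (1 with an unadjusted p under 0.05, 0 by DESeq2). *Mlx* had a log2 fold change of -0.21 (SE 0.11, adjusted p = 0.30), *Mlxip* 0.25 (SE 0.11, adjusted p = 0.20), *Mlxipl* 0.03 (SE 0.13, adjusted p = 0.93) and *Mxd3* 0.49 (SE 0.35, adjusted p = 0.43) at under 1 CPM. Of 16 genes that set the stability of MYC protein, 0 were called (2 with an unadjusted p under 0.05, 0 by DESeq2) and the median was 0.02. The largest estimates were 0.52 for the ubiquitin ligase *Fbxo32* (SE 0.17, adjusted p = 0.13), -0.28 for *Set* (SE 0.10, adjusted p = 0.14), -0.21 for *Aurka* (SE 0.23, adjusted p = 0.63) and 0.21 for *Gsk3b* (SE 0.10, adjusted p = 0.23).

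**Figure D5:**
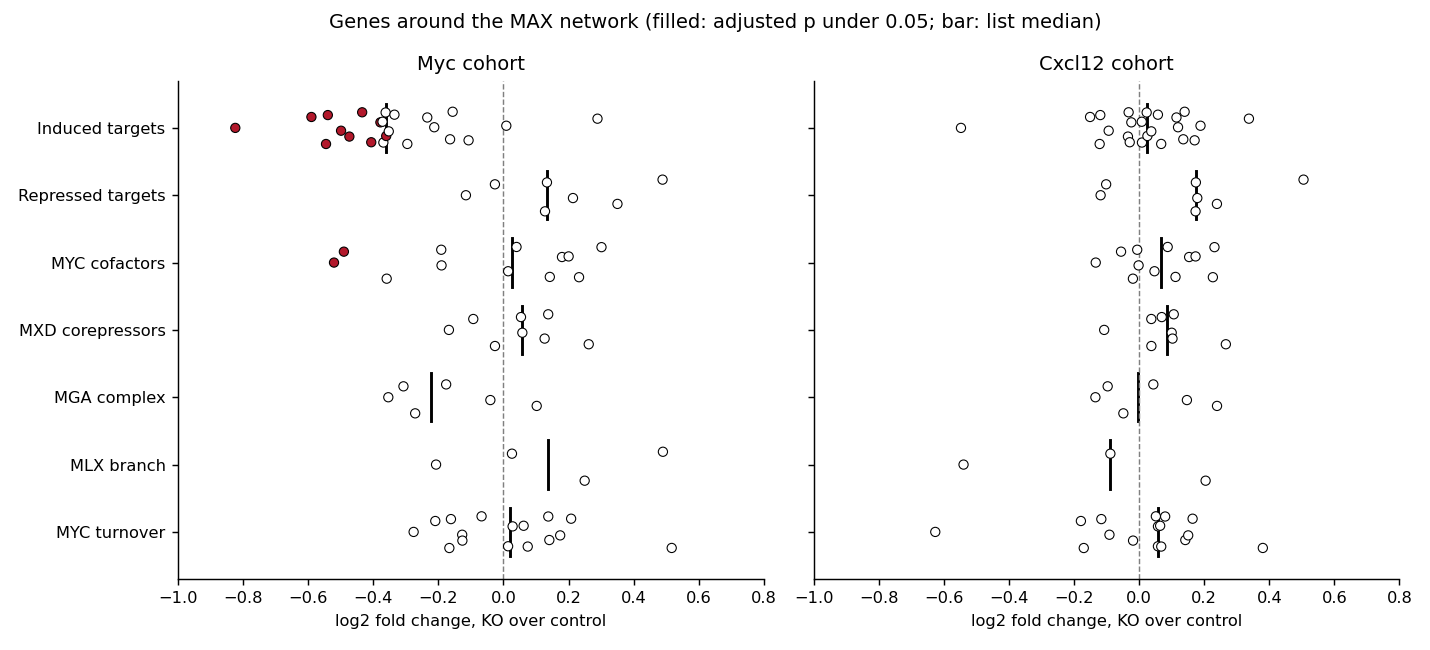
Log2 fold change of KO over control (x axis) of the genes in 7 lists (y axis), 1 point per gene, in the *Myc* cohort (left) and the *Cxcl12* cohort (right), with filled points for an adjusted p under 0.05 and a bar at each list's median. The filled points are 10 induced targets and 2 MYC cofactors, all left of 0 in the *Myc* cohort, and the *Cxcl12* cohort has none.

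The KO effects of the cohorts were compared in 1 fit over all 18 kidneys, in which 0.0692% of 15903 tested genes differed. The *Myc* cohort minus the *Cxcl12* cohort gave -1.83 (SE 0.18) for *Myc*, 1.66 (SE 0.25) for *Pvt1*, 0.55 (SE 0.30) for *Mycn* and -0.29 (SE 0.11) for *Max* on the log2 scale. The other 6 genes lay between -0.26 and 0.32. Of the listed genes, 2 passed this test, *Srm* at -0.81 (SE 0.14, adjusted p = 0.038) and *Npm1* at -0.62 (SE 0.11, adjusted p = 0.038). *Nop56* and *Mybbp1a*, at -0.66 (SE 0.14) and -0.58 (SE 0.12), did not pass (adjusted p = 0.064 for both).

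The genes whose levels ran most like those of *Myc* over the 18 kidneys, among 14726 genes tested in both cohorts, were *Ttc27*, *G3bp1*, *Mybbp1a*, *Nsun2* and *Nop56*, with Pearson's r of log2 CPM from 0.95 to 0.96. Within the 13 kidneys without the *Myc* deletion their r was 0.55 to 0.68, and after centring on the groups it was 0.55 to 0.71. For *Pvt1* they were *Gm9917*, ENSMUSG00000091562, *Phlpp1*, *Rel* and *Notch1*, with r from 0.81 to 0.87. Within the 13 kidneys this fell to between -0.16 and 0.27. The kidneys share the split into *Myc* KO and the rest, on which the *Pvt1* values and, in part, the *Myc* values rest. Ranking by group-centred r gave none of the same 5 genes for either. Of the network, *Mxd1* and *Mycn* had r of -0.75 and -0.74 with *Myc* over the 18 kidneys, and -0.42 and -0.14 after centring on the groups.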

How the data were processed

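Whole kidneys of 18 mice were profiled by RNA sequencing. The authors trimmed the reads with Trimmomatic 0.32 and aligned and counted them per gene with STAR 2.4.0 on GRCm38, and they deposited raw read counts that were not normalized. The annotation release behind the counts is not given in the sources used here. The unstranded count column was taken. The 2 stranded columns held 51.8% to 52.4% and 52.3% to 52.8% of its reads. Reads mapping to several places or to overlapping genes are not in it. Gene names, positions and exon lengths came from GENCODE vM21, which matched 45143 of 45706 identifiers, and promoter windows came from RefSeq (GRCm38.p6).

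For each cohort, low counts were removed (filterByExpr), TMM factors were computed, and KO and control were compared in edgeR 4.0.16 (R 4.3.3, glmQLFTest), with Benjamini-Hochberg adjustment over all tested genes and a threshold of 0.05. An estimate divided by the root of its F statistic gave the SE. The difference of KO effects was fitted over all 18 kidneys. Correlations used log2 CPM with a prior count of 2. DESeq2 1.42.0 and limma 3.58.1 served as alternatives, as did other size factors, no filter, a replicate block, leaving out kidneys and the low-unmapped group as a covariate. The limit of 5% unmapped reads was set after the shares had been seen. The scripts were tested on simulated data. Figures were drawn with matplotlib 3.10.9 under Python 3.11.15.

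The 10 genes and all lists were chosen with earlier results of these data known. Named were the 10 genes, *Cxcl12*, the called genes of each list or, where none or more than 6 were called, up to 4 with the largest fold change in the *Myc* cohort, region genes with a mean of at least 1 CPM, and the 5 genes most like *Myc* and *Pvt1*. Genes outside this rule that the text names (*Odc1*, *Ldha*, *Mcm4*, *Ccnd2*, *Shmt1*, *Npm1*, *Gsdmc2*, the remaining called targets and genes called by DESeq2 alone) were named after their values had been seen. Of 24 induced targets, 23 were matched in the count files. The labels number the samples of a group, and p-values measure the spread between these kidneys. All 33 pairs of kidneys within a group differed by more than counting noise (chi-square per degree of freedom 6.31 to 76.1).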

Additional observations from a re-analysis of the deposited data

Results flagged for a closer look

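By the fit over all 18 kidneys, the KO effects of the cohorts differed for *Npm1*, at -0.62 on the log2 scale (*Myc* minus *Cxcl12* cohort), and *Srm*, at -0.81. The same difference was -1.83 for *Myc*, the deleted gene, and 1.66 for *Pvt1*, both given as a description with no test, since these genes were chosen on such values.

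In 5 of 30 groups of 5 kidneys, 1 kidney stood far from the others. A chance rate of about 1 in 20 groups holds for independent groups of normal values. These groups share their kidneys between genes, so nothing is read from the number flagged. The third *Cxcl12* KO kidney had 8.005 CPM of *Mycn*, with the next at 5.01. The first *Cxcl12* KO kidney had 3.21 CPM of *Mycl*, with the next at 1.55. The fifth *Myc* KO kidney had 116.4 CPM of *Mxd4*, with the next at 106.0, and the second *Cxcl12* KO kidney had 87.6 CPM, with the next at 105.9. The fourth *Myc* control kidney had 59.4 CPM of *Mxi1*, with the next at 45.9.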

How the results depend on the processing

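*Myc* and *Pvt1* were called with the same sign in all 18 alternatives of the *Myc* cohort, at -1.68 to -1.53 and 1.45 to 1.65. Since the 10 genes were chosen on these values, nothing is read from their calls in this section. The number of all genes called in that cohort, 246, was 1139 with DESeq2, 954 with the low-unmapped group as a covariate, 683 in a fit over all 18 kidneys, 8 without the low-unmapped kidneys and 21 to 877 when 1 kidney was left out. The lowest came without the second *Myc* KO and the highest without the third *Myc* control kidney, and 6 further kidneys (*Myc* control 2, 4 and 5, *Myc* KO 3, 4 and 5) gave 29 to 108. The 2 called of the 10 genes, *Myc* and *Pvt1*, became 4 with DESeq2, which added *Mycn* and *Mxd1*, and 2 to 3 when 1 kidney was left out, where the third was *Mxd1* without the third *Myc* control kidney. The 12 called list genes were 19 with DESeq2, 1 without the low-unmapped kidneys and 3 to 15 when 1 kidney was left out. In the *Cxcl12* cohort, where 0 genes were called, 355 were with DESeq2, 214 with no filter, 123 with the covariate, 80 without the low-unmapped kidneys, 25 in the fit over all kidneys and 0 to 15 when 1 kidney was left out. There, 1 of the 10 genes, *Mxd1*, was called with the covariate, and 1 list gene, *Shmt1*, with DESeq2 and with no filter. The difference of KO effects was called for 11 genes and for 133 with the covariate. The causes were not tested.

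Under the replicate block, 18 genes were called in the *Myc* cohort, 2 of them list genes (*Srm* and *Nop56*, with *Ruvbl2* and *Kat2a* lost), and *Myc* and *Pvt1* stayed called. The numbers were not taken as pairs, since deviations of equally numbered kidneys correlated by more than 0.1 in 2 of 5 pairs of the *Myc* cohort (-0.16 to 0.38, mean 0.059) and 1 of 3 of the *Cxcl12* cohort (-0.05 to 0.14, mean 0.062), beside means of -0.013 and -0.015 for different numbers. The blocked fit of the *Cxcl12* cohort used the kidneys with a partner only. *Mxi1* in *Cxcl12* control kidneys, at 46.6 CPM, was 48.1 CPM by total counts, a shift above its SD of 0.51. Genes with few reads, such as *Mycl*, are limited by depth.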
